A study of Mus musculus with 8 samples.

Results

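Glutathione transferases join the tripeptide glutathione to electrophilic compounds, and several of them also reduce lipid hydroperoxides. The cytosolic enzymes fall into classes (alpha, mu, pi, omega, theta and others), while the microsomal ones (Mgst) are membrane proteins of a separate family that also holds leukotriene C4 synthase. Many of their genes are known targets of NRF2, the transcription factor that responds to oxidative and electrophilic stress, and in liver several are abundant in hepatocytes. The rule took 10 mouse genes by symbol, *Mgst1*, *Mgst2*, *Mgst3*, *Gsta1*, *Gsta3*, *Gsta4*, *Gstm1*, *Gstp1*, *Gsto1* and *Gstt1*. Of these, 8 matched a row among the 23930 RefSeq targets counted in each library. No row matched *Gsta1* or *Gstp1*, and these 2 genes were not analysed here.

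The cells were liver sinusoidal endothelial cells, the fenestrated lining of the hepatic capillaries, sorted as CD45-dim, STAB2-high, CD146-high from wild-type young female Balb/c mice. The mice had received an intravenous injection 5 h earlier, with 150 µg iron citrate in 4 libraries and 0.05 M citrate buffer in 4 libraries, 1 mouse per library. The design text speaks of 5 animals per group, and the others were not analysed here. RNA was read with an amplicon kit (Ion AmpliSeq), in which 1 short stretch of each transcript is amplified and counted, so CPM of different genes do not give the order of their transcript levels.

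Libraries held 7969520 to 11314659 counts on targets. Citrate buffer replicate 1 stood apart, with a median correlation to its own group of 0.84 against 0.96 to 0.98 for the other 7 libraries. Amplicons of intronless gene families silent in liver (olfactory, vomeronasal and bitter taste receptors, keratin-associated proteins) took 2.42% of its counts and 0.98% of those of citrate buffer replicate 2, against 0.29% to 0.61% in the other 6. It was the lowest buffer library for 6 of the 8 members, so values without it are given beside the results they change. The cells were checked against the markers of the sort. *Ptprc*, which encodes CD45, had 208, 177, 177 and 164 CPM in iron citrate replicates 1 to 4. In citrate buffer replicates 1 to 4 it had 381, 161, 202 and 135 CPM. CPM are counts per 1000000 of the library size after scaling by edgeR's TMM factors. *Stab2* had 1168, 878, 922 and 933 CPM in iron citrate replicates 1 to 4, against 900, 1016, 1203 and 1220 CPM in citrate buffer replicates 1 to 4. *Mcam*, which encodes CD146, had 181, 165, 193 and 178 CPM after iron citrate, against 204, 255, 266 and 285 CPM after buffer, with no overlap. Such a lack of overlap with iron citrate lower held for 2.29% of all tested targets. The log2 fold change of *Mcam*, -0.50, did not pass (edgeR adjusted p = 0.239). It was called lower by DESeq2 (adjusted p = 0.00319), limma-voom (0.00815) and edgeR without citrate buffer replicate 1 (0.0135). Other endothelial genes were low in that library, with *Kdr* at 749 CPM against 1793 to 2904 CPM in the other 3 buffer libraries and *Oit3* at 729 CPM against 1833 to 3310 CPM. The 10 endothelial markers summed to 22520 to 24180 CPM after iron citrate and 13708 to 27564 CPM after buffer. *Clec4g*, a lectin of sinusoidal endothelium, averaged 10007 ± 965 CPM after iron citrate and 9462 ± 1993 CPM after buffer (SD, n = 4 each). The part of these shifts in the changes below was not tested.

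Promoter sequences are shown for the 2 members that changed, *Mgst1* and *Gstm1*, because the antioxidant response element is the site through which NRF2 acts. *Gsta3*, which was not called (edgeR adjusted p = 0.332), is shown too, as the only other member with a match to that element. Windows of the other members held no match and are not shown. The sequences are from RefSeq on build GRCm38.p6, the 250 bases before the annotated start, written 5′ to 3′ in the direction of the gene. Capitals mark the core of that element, TGACNNNGC, on either strand. *Mgst1* lies on the plus strand at chr6:138140277-138140526, *Gstm1* on the minus strand at chr3:108017819-108018068 and *Gsta3* on the plus strand at chr1:21240335-21240584.
Mgst1: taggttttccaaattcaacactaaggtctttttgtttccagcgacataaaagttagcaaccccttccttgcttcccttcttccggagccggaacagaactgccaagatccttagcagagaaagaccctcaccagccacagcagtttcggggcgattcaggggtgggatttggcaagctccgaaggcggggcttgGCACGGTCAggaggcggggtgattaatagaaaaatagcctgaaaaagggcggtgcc
Gstm1: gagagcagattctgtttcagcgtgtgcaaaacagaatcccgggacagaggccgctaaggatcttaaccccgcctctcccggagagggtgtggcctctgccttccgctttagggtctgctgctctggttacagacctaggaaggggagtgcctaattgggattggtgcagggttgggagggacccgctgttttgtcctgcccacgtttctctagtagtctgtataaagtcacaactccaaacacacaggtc
Gsta3: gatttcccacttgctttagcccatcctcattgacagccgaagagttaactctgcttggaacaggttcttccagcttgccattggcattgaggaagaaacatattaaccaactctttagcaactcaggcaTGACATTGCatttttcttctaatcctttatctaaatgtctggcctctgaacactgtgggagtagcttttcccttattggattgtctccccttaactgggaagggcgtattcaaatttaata
Windows that run 50 bases past the start were found for 9 of the 10 genes, not for *Gsta4*, and *Mgst1* and *Gstm1* have 2 windows each. The core occurred in 2 of these 11 windows, GCACGGTCA on the opposite strand of *Mgst1*, 56 bases before the start, and TGACATTGC in *Gsta3*, 121 bases before it. Among all 32851 windows of the same 300 bases in the table, 12.4% held the core. The second *Mgst1* window and both *Gstm1* windows held none. A match in these letters is a description of the window and not a measured binding site.

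Of the 8 measured glutathione transferases, *Mgst1* and *Gstm1* rose after iron citrate, each about 4-fold, none fell and 6 did not pass the test. Counts were tested with edgeR's quasi-likelihood test on 14601 targets that passed a filter on low counts, with Benjamini-Hochberg adjustment over all of them and a call at an adjusted p under 0.05. All 8 passed the filter, each with at least 3 libraries of both groups over its minimum. Over all tested targets 0.527% were called higher and 0.0274% lower, 77 and 4 targets, and without citrate buffer replicate 1 the counts were 220 higher and 38 lower. The median log2 fold change was 0.81 over the 8 members and -0.01 over all tested targets. None of the 8 was called lower by DESeq2 or limma-voom either, and at an unadjusted p under 0.05 by edgeR 5 were higher and 0 lower, against 6.57% and 8.0% of all tested targets. As these are bulk samples of sorted cells, a change in the share of a cell type and a change of RNA per cell cannot be told apart.

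*Mgst1*, the widely expressed microsomal enzyme that conjugates glutathione and reduces lipid hydroperoxides, had 108, 105, 125 and 107 CPM in iron citrate replicates 1 to 4, against 20.1, 26.3, 23.1 and 34.8 CPM in citrate buffer replicates 1 to 4. Every iron citrate library lay above every buffer library. It averaged 111 ± 9.20 CPM after iron citrate and 26.1 ± 6.35 CPM after buffer (SD, n = 4 each), a 4.27-fold rise (log2 fold change 2.10, SE 0.18, edgeR adjusted p = 0.00046). Between 211 and 1191 reads stood behind these values. Its log2 fold change was 1.99 without citrate buffer replicate 1.

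*Gstm1*, a mu-class enzyme of the cytosol, had 448, 463, 483 and 464 CPM in iron citrate replicates 1 to 4, against 79.8, 126, 112 and 141 CPM in citrate buffer replicates 1 to 4. The groups did not overlap, and the iron citrate libraries lay close together. The means were 464 ± 14.4 CPM after iron citrate and 115 ± 26.0 CPM after buffer (SD, n = 4 each), 4.05-fold apart (log2 fold change 2.02, SE 0.18, edgeR adjusted p = 0.00058). Without citrate buffer replicate 1 the log2 fold change was 1.88. Of the reads on the 8 members together, *Gstm1* took 61.9% to 66.5% after iron citrate and 45.1% to 50.7% after buffer. Their summed level was 697 to 780 CPM after iron citrate and 177 to 304 CPM after buffer.

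**Figure D1:**
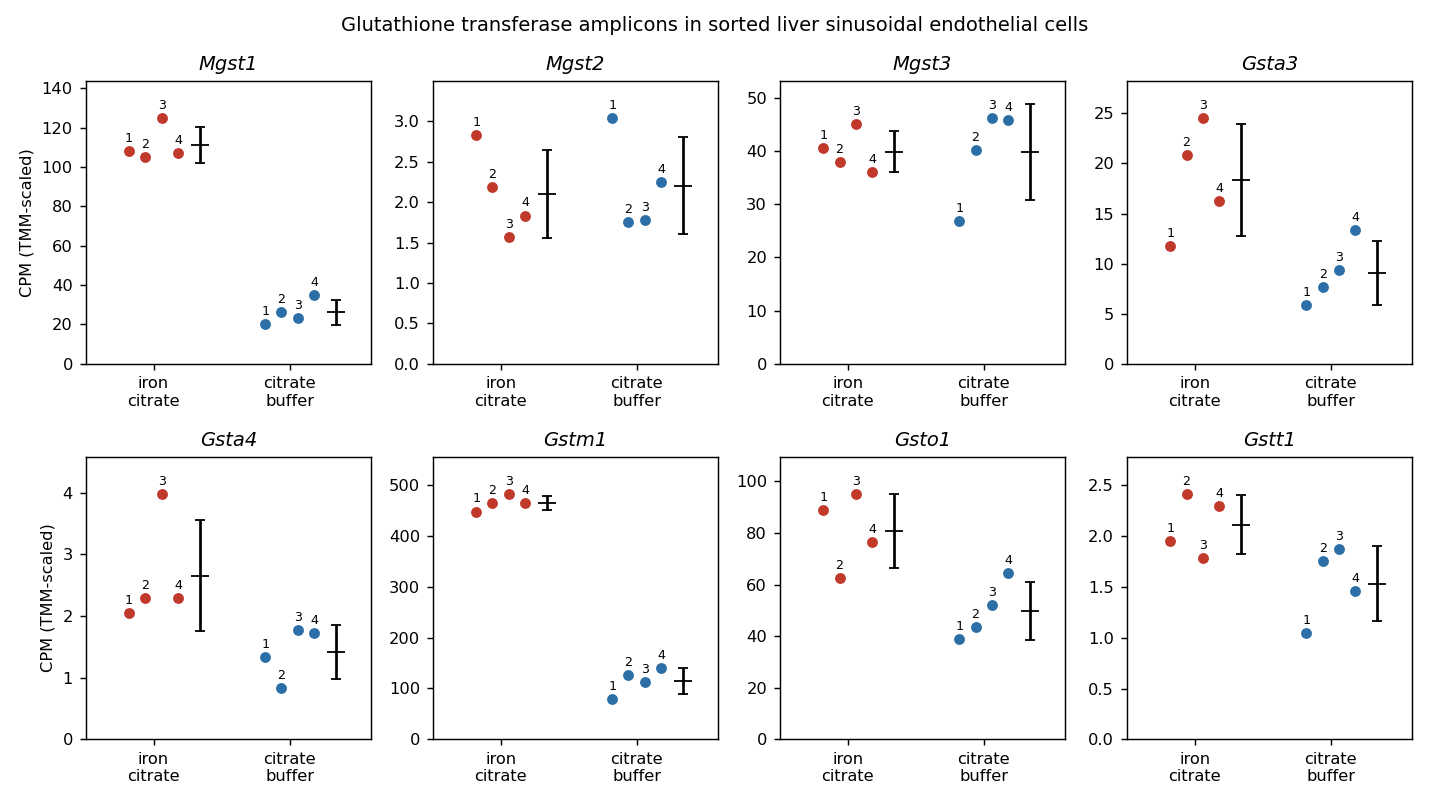
Level of each of the 8 measured glutathione transferases in CPM on an axis from 0, with 1 numbered point per library and the mean with its SD beside the points, iron citrate (red) left of citrate buffer (blue). *Mgst1* and *Gstm1* stand apart between the groups, *Gsta4* does so by a small margin at 0.83 to 3.99 CPM, and the other 5 overlap.

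The other microsomal members showed no such difference. *Mgst3*, which can act on leukotriene A4 and on lipid hydroperoxides, had 40.5, 38.0, 45.0 and 36.1 CPM in the iron citrate libraries, against 26.8, 40.3, 46.2 and 45.8 CPM in the buffer libraries. The groups overlapped, and citrate buffer replicate 1 was the lowest of all. Its log2 fold change was 0.01 with a 95% interval of -0.41 to 0.42 (edgeR adjusted p = 0.99), and its sign depended on the settings. Without citrate buffer replicate 1 the log2 fold change was -0.14 (edgeR adjusted p = 0.65). *Mgst2*, an enzyme that can make leukotriene C4, had 2.83, 2.19, 1.57 and 1.83 CPM after iron citrate and 3.04, 1.75, 1.78 and 2.25 CPM after buffer, which rests on 15 to 32 reads per library. The highest and the lowest value, 3.04 CPM in citrate buffer replicate 1 and 1.57 CPM in iron citrate replicate 3, were in different groups, and the log2 fold change was -0.06 with an interval of -0.83 to 0.70 (edgeR adjusted p = 0.936). That interval holds changes of *Mgst2* in both directions, and it is not a limit of detection. Without citrate buffer replicate 1 the log2 fold change of *Mgst2* was 0.14 (edgeR adjusted p = 0.883).

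Both measured alpha-class members were higher on average after iron citrate without passing the test. *Gsta3*, which in mouse liver conjugates the epoxide of aflatoxin B1, had 11.7, 20.8, 24.5 and 16.2 CPM in iron citrate replicates 1 to 4, against 5.90, 7.67, 9.34 and 13.4 CPM in citrate buffer replicates 1 to 4. Only iron citrate replicate 1 and citrate buffer replicate 4 crossed over. The log2 fold change was 1.02 with an interval of 0.30 to 1.74, and the edgeR adjusted p of 0.332 over all targets did not pass, also without citrate buffer replicate 1 (0.87, adjusted p = 0.143). *Gsta4*, whose preferred substrate is the lipid peroxidation product 4-hydroxynonenal, had 2.05, 2.30, 3.99 and 2.29 CPM after iron citrate, against 1.33, 0.83, 1.78 and 1.72 CPM after buffer, from 10 to 38 reads per library. The groups did not overlap, which held with iron citrate higher for 3 of the 8 members and for 6.36% of all tested targets. Its log2 fold change was 0.91 with an interval of 0.07 to 1.76 (edgeR adjusted p = 0.333).

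*Gsto1*, the omega-class enzyme that reduces dehydroascorbate and mixed disulfides, had 88.9, 62.7, 95.3 and 76.6 CPM in the iron citrate libraries, against 38.9, 43.6, 52.1 and 64.3 CPM in the buffer libraries. Iron citrate replicate 2 lay just below citrate buffer replicate 4, and otherwise the groups were apart. Its log2 fold change was 0.70 with an interval of 0.28 to 1.13 and an edgeR adjusted p of 0.239. DESeq2 called it higher (log2 fold change 0.67, adjusted p = 0.0467). Without citrate buffer replicate 1 its log2 fold change was 0.60 (edgeR adjusted p = 0.0947). *Gstt1*, a theta-class enzyme that acts on small halogenated compounds, had 1.95, 2.42, 1.78 and 2.29 CPM after iron citrate and 1.05, 1.75, 1.87 and 1.46 CPM after buffer. The groups overlapped at 11 to 25 reads per library, with a log2 fold change of 0.46 and an SE of 0.32 (edgeR adjusted p = 0.441).

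Reads of close relatives can be counted on one another's targets, so the transcripts were compared for identical stretches in the GENCODE M21 set. Only genes with a Gst or Mgst symbol were compared, so *Hpgds*, *Ltc4s*, *Alox5ap* and *Ptges* were left out. The longest run that *Mgst1* shared with any of the compared genes was 14 bases. *Gstm1* shared a run of 112 bases with *Gstm3* and one of 60 bases with *Gstm2*, its neighbours in the mu-class cluster of chromosome 3. Which stretch the kit amplifies is not given in the sources used here. *Gstm3* was under the filter at 0.83 to 1.50 CPM after iron citrate and 0.42 to 0.79 CPM after buffer. *Gstm2* had 468, 578, 481 and 522 CPM in the iron citrate libraries, against 349, 381, 323 and 349 CPM in the buffer libraries, a log2 fold change of 0.55 that did not pass (edgeR adjusted p = 0.147). It was called higher by DESeq2 (adjusted p = 0.00047), by limma-voom (0.0193) and without citrate buffer replicate 1 (0.0417). With the counts of *Gstm1*, *Gstm2* and *Gstm3* added together, the log2 fold change was 1.07 (edgeR adjusted p = 0.00428). The absent members have closer relatives, with a shared run of 369 bases between *Gstp1* and *Gstp2* and of 253 bases between *Gsta1* and *Gsta2*.

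Within a library, the ratio of 2 related amplicons does not depend on scaling, and 6 such pairs are described, chosen after the values of the genes had been seen and so not tested. They are all pairs of measured members of 1 class, plus *Gstm1* and *Gstt1* with the tested class relative of longest shared run. The ratio of *Mgst1* to *Mgst3* was 2.67, 2.77, 2.78 and 2.96 in iron citrate replicates 1 to 4, against 0.748, 0.652, 0.500 and 0.760 in citrate buffer replicates 1 to 4. The ratio of *Gstm1* to *Gstm2* was 0.957, 0.802, 1.003 and 0.889 after iron citrate, against 0.229, 0.330, 0.346 and 0.403 after buffer. Neither pair's groups overlapped, and nor did those of *Mgst1* to *Mgst2*, at 38.3 to 79.4 after iron citrate and 6.59 to 15.5 after buffer. The differences in log2 ratio were 2.09 for *Mgst1* over *Mgst3*, 1.51 for *Gstm1* over *Gstm2* and 2.19 for *Mgst1* over *Mgst2*. The ratio of *Gsta3* to *Gsta4* overlapped, at 5.71 to 9.05 after iron citrate and 4.43 to 9.20 after buffer. *Mgst2* over *Mgst3* and *Gstt1* over *Gstt2* overlapped too.

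**Figure D2:**
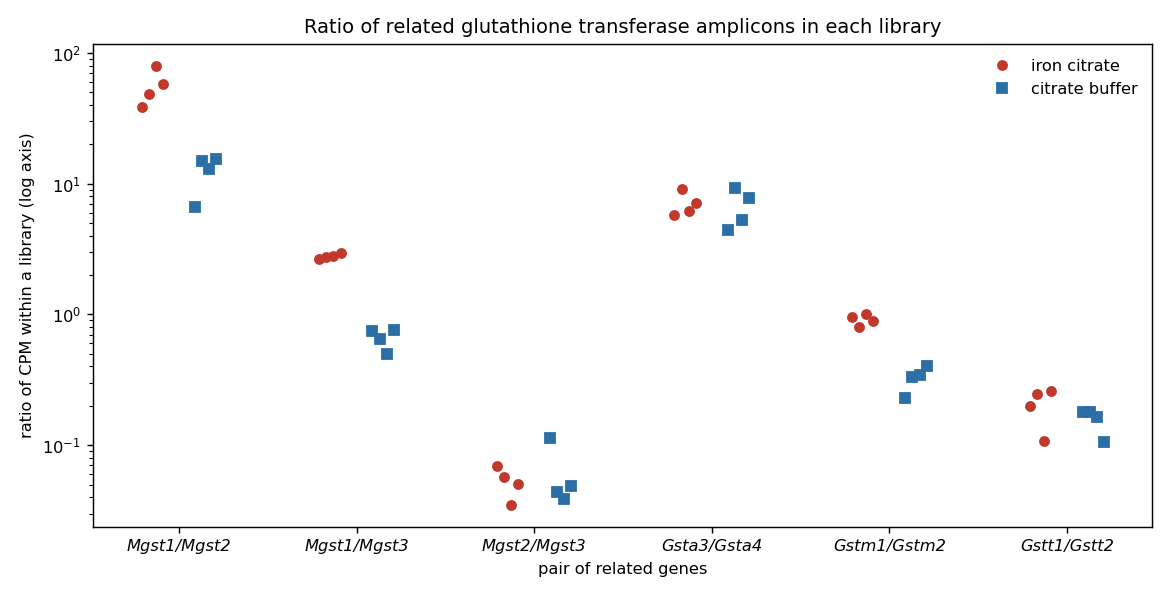
Ratio of CPM of 2 related genes within each library, on a log axis, for 6 pairs, with iron citrate (red circles) left of citrate buffer (blue squares) and 1 point per library. The groups are apart for *Mgst1* over *Mgst2*, *Mgst1* over *Mgst3* and *Gstm1* over *Gstm2*, and overlap for the other 3 pairs.

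Across the 8 libraries, the log2 CPM of *Gstm1* and *Mgst1* had a Pearson correlation of 0.995 with each other. The 3 tested targets most like *Gstm1* were *Blvrb* (r = 0.997), *Gsr* (0.996) and *Slc40a1* (0.996). For *Mgst1* they were *Blvrb* (0.998), *Slc40a1* (0.996) and *Calr3* (0.995). The libraries form 2 groups and share their scaling, so r describes mostly the difference between the groups, and no p is given. *Blvrb*, a biliverdin reductase, stood at 507 ± 49.5 CPM after iron citrate and 77.0 ± 21.7 CPM after buffer (SD, n = 4 each), and *Calr3*, a calreticulin relative, at 71.4 ± 5.20 CPM after iron citrate and 6.92 ± 2.09 CPM after buffer. The iron exporter *Slc40a1* was at 1354 ± 117 CPM after iron citrate and 212 ± 53.2 CPM after buffer.

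Of 23 other genes of the cytosolic, kappa and microsomal families, 17 had a row, 12 passed the filter and none was called by edgeR in either direction. Their median log2 fold change was -0.01. At an unadjusted p under 0.05 by edgeR, *Gstm2* was higher and *Ltc4s* lower, 1 of 12 each way, against 6.57% and 8.0% of all tested targets. DESeq2 called *Gstm2* alone, and limma-voom called it higher and *Ltc4s* lower. *Ltc4s*, the leukotriene C4 synthase, had 8.20, 2.65, 8.18 and 3.94 CPM in the iron citrate libraries, against 3.33, 10.3, 30.4 and 18.9 CPM in the buffer libraries. Citrate buffer replicate 1 lay among the iron citrate values, and without it the log2 fold change was -1.79 (edgeR adjusted p = 0.0304), against -1.45 (adjusted p = 0.333) with it. *Alox5ap*, the membrane partner of 5-lipoxygenase, averaged 32.4 CPM after iron citrate and 33.4 CPM after buffer (log2 fold change -0.05, edgeR adjusted p = 0.931). *Gstp3*, the measured pi-class gene, averaged 21.7 ± 2.11 CPM after iron citrate and 21.3 ± 10.4 CPM after buffer (SD, n = 4 each; log2 fold change 0.02, edgeR adjusted p = 0.979).

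**Figure D3:**
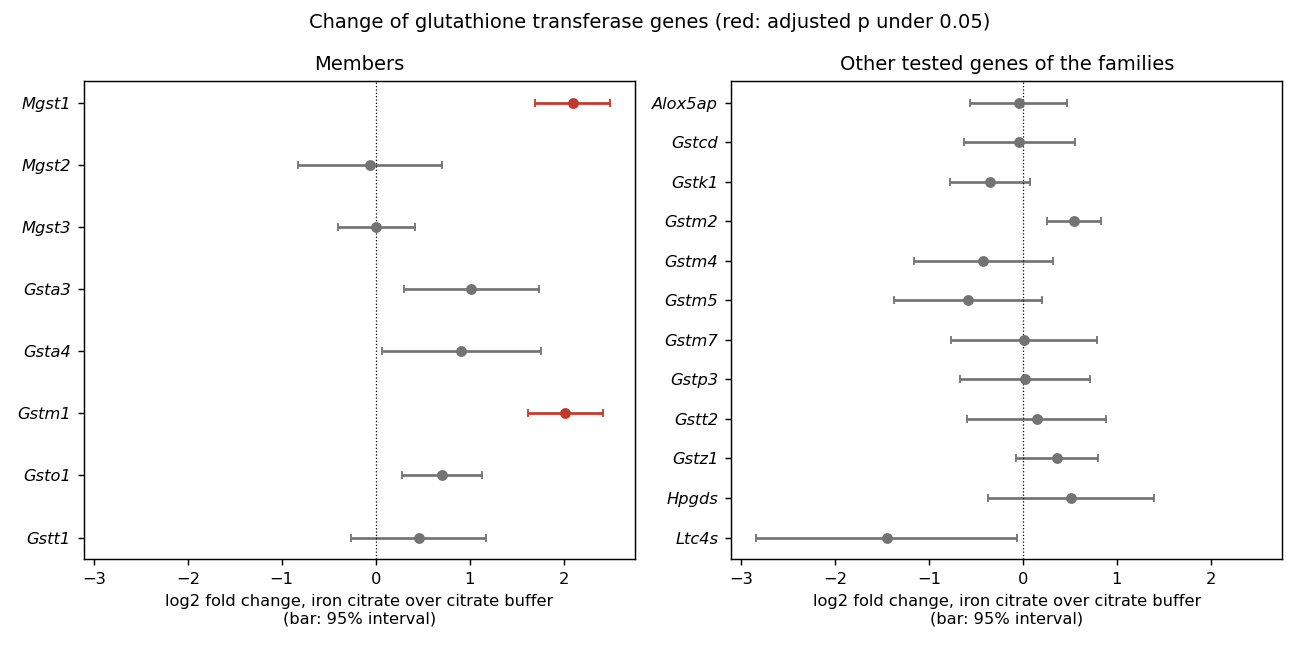
Log2 fold change of iron citrate over citrate buffer with its 95% interval for the 8 measured members (left) and the 12 other tested genes of the families (right), with genes at an edgeR adjusted p under 0.05 in red. *Mgst1* and *Gstm1* lie near 2, at 2.10 and 2.02, and no gene of the right panel is called.

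The co-substrate and the products of these enzymes pass through other proteins, which were counted by list. The supply list holds 10 genes that set the level of glutathione, among them *Chac1*, *Chac2* and *Ggct* of its breakdown. Of these 10, 9 were tested, 3 rose and none fell, against 0.527% and 0.0274% of all tested targets. The genes that rose were *Gclm*, the modifier subunit of glutamate-cysteine ligase, *Gclc*, its catalytic subunit, and *Gsr*, which regenerates reduced glutathione. *Gclm* had 772 to 820 CPM in the iron citrate libraries, against 45.7 to 77.9 CPM in the buffer libraries, a 13.2-fold rise (log2 fold change 3.73, SE 0.19, edgeR adjusted p = 9.8e-06). *Gclc* rose 5.06-fold, with 312 ± 43.1 CPM after iron citrate and 61.7 ± 8.26 CPM after buffer (SD, n = 4 each; edgeR adjusted p = 7.2e-05). *Gsr* rose 4.53-fold, with 144 to 178 CPM after iron citrate and 24.8 to 42.3 CPM after buffer (edgeR adjusted p = 0.00032). The second enzyme of the synthesis, *Gss*, averaged 29.0 ± 4.25 CPM after iron citrate and 29.7 ± 2.96 CPM after buffer (SD, n = 4 each; log2 fold change -0.03, edgeR adjusted p = 0.921).

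Of 19 genes that export glutathione conjugates or process them further, 11 were tested, 2 rose and none fell. Over all tested targets, 0.527% were called higher and 0.0274% lower. *Abcc4*, an efflux pump for organic anions, had 70.7, 66.0, 82.8 and 90.7 CPM in the iron citrate libraries, against 16.6, 21.6, 28.2 and 32.0 CPM in the buffer libraries (3.15-fold, edgeR adjusted p = 0.00649). Its relative *Abcc5* had 90.2 to 117 CPM after iron citrate and 43.4 to 61.5 CPM after buffer, 1.90-fold apart (edgeR adjusted p = 0.0221), a call lost when any 1 of citrate buffer replicates 2 and 3 or the iron citrate replicates was left out (adjusted p = 0.0524 to 0.138). *Abcc1*, the best known exporter of glutathione conjugates, averaged 19.0 CPM after iron citrate and 13.7 CPM after buffer (log2 fold change 0.48, edgeR adjusted p = 0.395).

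Among 8 genes for glutathione peroxidases and the related *Prdx6*, 5 were tested and none was called by edgeR, DESeq2 or limma-voom. No row matched *Gpx4*, which was therefore not analysed here. At an unadjusted p under 0.05 by edgeR, *Gpx3* was higher, 1 of 5, against 6.57% of all tested targets. *Gpx1*, the main cytosolic peroxidase, was at 800 ± 82.8 CPM after iron citrate and 749 ± 94.6 CPM after buffer (SD, n = 4 each; edgeR adjusted p = 0.748). *Prdx6*, a peroxiredoxin that uses glutathione, averaged 65.3 CPM after iron citrate and 62.2 CPM after buffer (log2 fold change 0.07, edgeR adjusted p = 0.83). The median log2 fold changes of the supply, export and peroxidase lists were -0.03, 0.01 and 0.10, close to that of all tested targets.

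**Figure D4:**
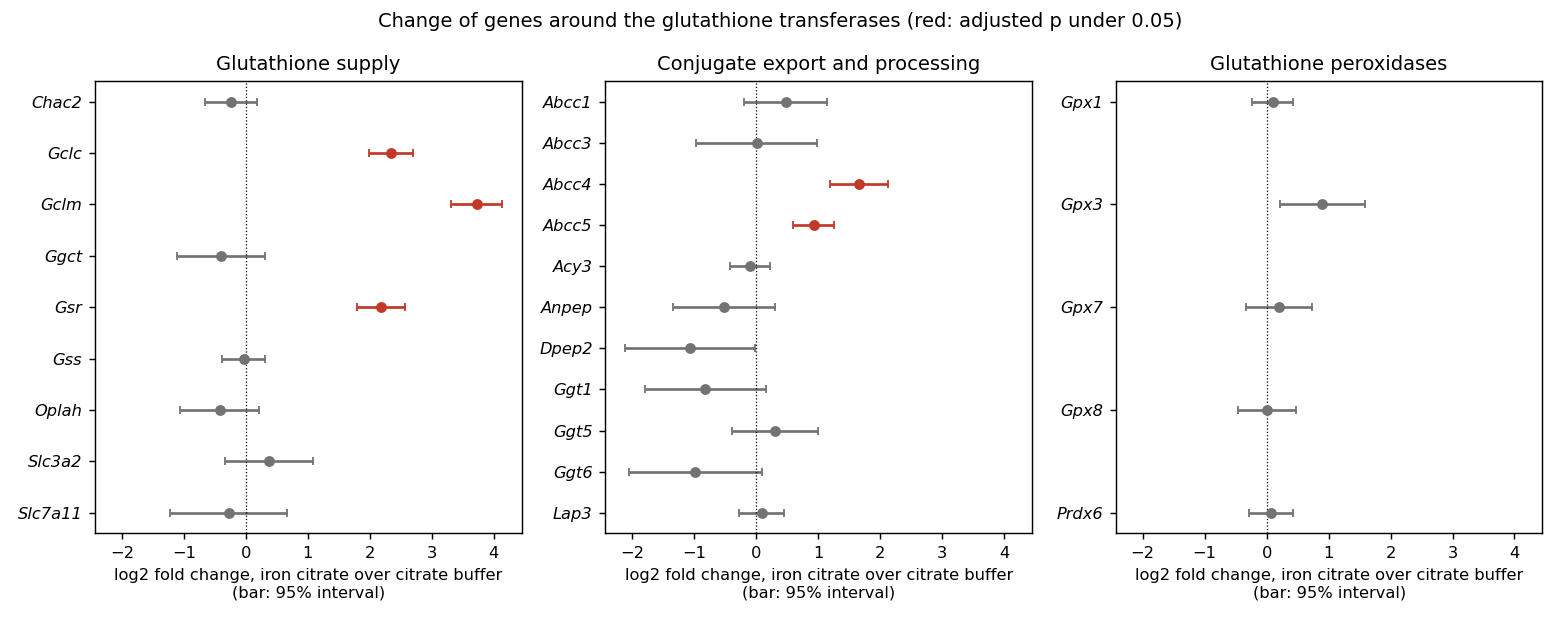
Log2 fold change of iron citrate over citrate buffer with its 95% interval for tested genes of the lists above. They are the glutathione supply list (with *Chac2* and *Ggct* of its breakdown), conjugate export and processing, and glutathione peroxidases. Genes at an edgeR adjusted p under 0.05 are in red. Called genes are *Gclc*, *Gclm* and *Gsr* on the left and *Abcc4* and *Abcc5* in the middle, between 0.93 and 3.73.

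Hepatocytes express several of these genes strongly, so their markers are given beside the result. The summed level of 12 measured hepatocyte markers was 377 to 813 CPM after iron citrate and 450 to 936 CPM after buffer, and none of the 12 was called by edgeR, DESeq2 or limma-voom, nor had any an unadjusted edgeR p under 0.05. Their median log2 fold change was -0.21. *Alb* averaged 319 ± 107 CPM after iron citrate and 457 ± 152 CPM after buffer (SD, n = 4 each), *Cyp2e1* 39.9 CPM after iron citrate and 45.1 CPM after buffer, and *Apoa1* 35.1 CPM after iron citrate and 47.5 CPM after buffer. With the hepatocyte marker level as a covariate, the log2 fold change was 2.25 for *Mgst1* (edgeR adjusted p = 0.00084) and 2.17 for *Gstm1* (adjusted p = 0.00089). The part of hepatocytes in the rise of these genes was not tested.

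Of the other cell types, 6 of 7 Kupffer cell markers were tested and none was called, at a summed level of 132 to 403 CPM after iron citrate and 38.9 to 227 CPM after buffer and a median log2 fold change of 0.59. Among them *Vsig4*, *Clec4f* and *Cd5l* averaged 139, 57.6 and 48.6 CPM after iron citrate and 83.9, 37.1 and 33.4 CPM after buffer, while *C1qa* was at 0 in 6 libraries and below 0.2 CPM in the other 2. The part of these cells in the rise of *Mgst1* and *Gstm1* was not tested. Markers of cholangiocytes (4 of 5 tested, *Spp1*, *Krt19* and *Epcam* among them) summed to 88.1 to 111 CPM after iron citrate and 36.8 to 103 CPM after buffer. Those of stellate cells (6 of 6, among them *Dcn*, *Rgs5* and *Reln*) summed to 434 to 659 CPM after iron citrate and 267 to 660 CPM after buffer. Those of leukocytes (5 of 6, among them *Ptprc*, *Cd3e* and *Nkg7*) summed to 538 to 613 CPM after iron citrate and 437 to 1058 CPM after buffer. The highest of these leukocyte sums was in citrate buffer replicate 1. With all 8 libraries edgeR called no marker of these lists or of sinusoidal endothelium. At an unadjusted p under 0.05 by edgeR, *Lyve1* was higher and *Mcam* lower, against 6.57% and 8.0% of all tested targets. Without citrate buffer replicate 1, edgeR called *S100a8*, a neutrophil marker of the leukocyte list, higher (log2 fold change 0.78, adjusted p = 0.0182), besides *Mcam*. *S100a8* had 42.2, 40.8, 45.4 and 30.8 CPM in the iron citrate libraries, against 116, 24.6, 21.2 and 23.8 CPM in the buffer libraries, and citrate buffer replicate 1 was the highest of all.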

How the data were processed

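The authors deposited whole-number read counts per RefSeq target, 1 file per library. HTSeq 0.6.0 and DESeq2 1.18.1 are named per the submitters' processing notes. The sources used here do not give the aligner, genome build and read filters. HTSeq's summary lines, 2.15% to 4.60% of reads, were left out. Symbols came from RefSeq and GENCODE tables, and 1368 targets stayed unmatched. Amplicon reads carry no molecular identifiers, so copies of 1 molecule cannot be told apart and read numbers are not numbers of molecules. A p-value here reflects variation among the 4 mice of a group.

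The 2 groups were tested in edgeR 4.0.16 under R 4.3.3 (filterByExpr with a minimum count of 10, TMM factors, quasi-likelihood F-test with robust dispersion). CPM use TMM-scaled library sizes. SEs and 95% intervals come from the F statistic. Pairs of libraries had a chi-square per degree of freedom of at least 8.79, so none was a duplicate. The test was run on simulated data first. Members and lists were chosen with earlier results of these data known. The text names every member, the called genes of each glutathione list or otherwise the 2 with the most reads, the 3 targets most correlated with each called member, and the 3 markers with the most reads of each cell type. Any other gene with a value, such as *Stab2*, *Mcam*, *S100a8*, *Gss*, *Abcc1*, *Gstp3*, *Gstm3*, *Gstk1*, *Gstt2*, *Ltc4s*, *Gpx3*, *Lyve1* and *C1qa*, was added after its values were seen. Alternatives were other scaling, DESeq2 1.42.0, limma-voom (limma 3.58.1), other filters, a replicate block, a 1.2-fold threshold, 2 covariates, libraries left out and, chosen after seeing the data, summed paralogues. The ratio pairs were also chosen then and carry no test.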

Additional observations from a re-analysis of the deposited data

Results flagged for a closer look

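Within its group of 4, iron citrate replicate 3 stood far from the other libraries for 2 members. *Mgst1* was at 124.94 CPM there, with a gap to the next library of 0.833 of the group's range. *Gsta4* was at 3.99 CPM, with a gap of 0.871 of the range, from 38 reads. Both gaps are over the 95% limit of Dixon's test for 4 values, which chance passes in about 1 of 20 groups, and 28 groups were looked at. Without that library *Mgst1* kept its call (log2 fold change 2.04, edgeR adjusted p = 0.00428), and *Gsta4* had a log2 fold change of 0.65 (adjusted p = 0.595).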

How the results depend on the processing

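*Mgst1* and *Gstm1* were called higher in all 20 alternative settings, with log2 fold changes of 1.93 to 2.27 and 1.85 to 2.17, and no member was called lower in any. *Gstm1* summed with *Gstm2* and *Gstm3*, a setting chosen after seeing the data, gave 1.07. Among the other members only *Gsto1* was called, with DESeq2. Median log2 fold changes of all targets were -0.12 with upper-quartile factors and -0.11 with library totals, against -0.01. *Mgst3* turned negative with relative log expression (-0.022) or upper-quartile factors (-0.10), library totals (-0.081), DESeq2 (-0.021), limma-voom (-0.15), a mean CPM of at least 5 (-0.015), the silent family covariate (-0.23) and without citrate buffer replicates 1 and 2 (-0.21), and leaving out 1 library gave -0.14 to 0.082. *Mgst2* turned positive with limma-voom (0.19), that covariate (0.17) and without both buffer libraries (0.078), and leaving out 1 library gave -0.24 to 0.14. The causes were not tested. Leaving out 1 library moved the log2 ratio of *Mgst2* over *Mgst3* between -0.27 and 0.25 and that of *Gsta3* over *Gsta4* between -0.066 and 0.29.

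All targets called higher were 295 with DESeq2, 246 with limma-voom, 43 with the replicate block, 235 with the silent family covariate, 200 without citrate buffer replicates 1 and 2 and 45 to 220 with 1 library left out. Those called lower were 70, 43, 0, 89, 81 and 0 to 38 in the same settings, and 2 with the hepatocyte marker covariate. Among the other transferase genes, 1 was called higher (*Gstm2*) with DESeq2, limma-voom, the silent family covariate or without both buffer libraries, and 0 to 1 with 1 library left out. Called lower were 1 (*Ltc4s*) with limma-voom or that covariate, 2 (*Ltc4s* and *Gstk1*) without both buffer libraries, and 0 to 1 with 1 left out. Export genes called higher were 1 with the replicate block (*Abcc5* lost, adjusted p = 0.0859) or the 1.2-fold threshold, and 1 to 2 with 1 library left out. Without both buffer libraries 1 peroxidase gene, *Gpx3*, was called higher. *Mcam* was called lower also with upper-quartile factors (adjusted p = 0.0464), library totals (0.0457), the silent family covariate (0.00554) and without both buffer libraries (0.0113), and *S100a8* higher without both (0.0146). Supply genes and hepatocyte markers kept their counts in all alternatives. The deviations of same-numbered libraries correlated at -0.0003 to 0.61 in 3 pairs and at -0.32 in the fourth. Differently numbered libraries of the 2 groups correlated at -0.60 to 0.55. These values do not decide whether replicate numbers pair the libraries, and the main test used no pairing. With the replicate block *Mgst1* and *Gstm1* had log2 fold changes of 2.12 and 2.05 (edgeR adjusted p = 0.00493 and 0.00476). Depth limits *Mgst2*, *Gsta4* and *Gstt1*, at 10 to 38 reads per library. The sums of *Gsta1* with *Gsta2* and of *Gstp1* with *Gstp2* were not run, since no row matched any of these 4 genes.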
